A study of Mus musculus with 96 samples.

Results

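The genes described here encode mitochondrial ribosomal proteins, and were taken as every row of the deposited expression table whose symbol begins with Mrpl or Mrps and a digit. The rule found 75 of the 15895 genes in the table, 47 named for the large subunit (Mrpl) and 28 for the small subunit (Mrps). They were followed by RNA sequencing of polyadenylated RNA from primary mouse embryonic fibroblasts of the outbred CF-1 strain, taken from embryos of day 13. The fibroblasts were held for 36 h in medium with 0.5% fetal calf serum, which lets them leave the division cycle, and then received 20% serum at 0 h. Libraries were made from 1 sample per time point in each of 2 time courses, Cycle 1 from -1 to 38 h (63 libraries used) and Cycle 2 from -1 to 27 h (32 libraries). The libraries at -1 and 0 h of both Cycles are called starved here (n = 4). The later ones were grouped into the windows 0.5 to 3.5 h (n = 12), 4 to 8.5 h (n = 15), 9 to 14.5 h (n = 17), 15 to 20.5 h (n = 18), 21 to 27 h (n = 18) and, in Cycle 1 alone, 28 to 38 h (n = 11). No genotype, drug or other treatment differed between groups, so time after serum and Cycle are the only factors.

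Mitochondrial ribosomes translate the few messenger RNAs that mitochondrial DNA encodes, which code for core subunits of the oxidative phosphorylation complexes. All proteins of these ribosomes are encoded in the nucleus, made on cytosolic ribosomes and imported, so a growing fibroblast has to supply them together with the ribosomal RNAs made inside the organelle. Many members are descendants of bacterial ribosomal proteins, and others are found only in mitochondria.

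Each value is the number of reads in a gene's exons after the authors scaled every library to a common total, and is called a scaled read count below. The libraries held 4352236 to 12551905 reads on listed genes, as recovered from the smallest step between low values, with a median of 9520336 in Cycle 1 and 9319322 in Cycle 2. The fibroblast markers were all present at high values in every library (Col1a1 from 39357 to 119520, Vim from 25438 to 76718). Of the markers of other cell types, Pecam1, Cdh5, Tie1, Epcam, Myod1 and Myog reached 0 in some libraries. Lyz2 of macrophages (307 to 4066) and Des of muscle (306 to 2131) were above the median starved gene (171) in every library. The other macrophage and blood markers had means below it (Ptprc 27.5, Emr1 57.1, Cd68 105.5 and Csf1r 122). So had the other muscle markers, Myod1 (4.76) and Myog (13.9). Most marker sums moved over the course. Between the starved libraries and 28 to 38 h, the fibroblast sum went from 348030 to 519800 down to 151460 to 205910, and the macrophage and blood sum from 1043 to 3309 down to 459.7 to 681. The endothelial sum went from 179.6 to 282 down to 37.2 to 76.0, and the epithelial sum from 109 to 275 down to 33.1 to 103. The neural (369.6 to 442, then 315 to 572) and muscle sums (609 to 1667, then 518 to 969) overlapped. The part of these markers in the results below was not tested. As whole cultures were sequenced, more cells with a transcript and more of it per cell cannot be told apart.

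In starved fibroblasts the members were expressed at moderate levels. Their mean scaled read count had a median of 264, from 3.11 for Mrpl23 to 682 for Mrpl17, and 57 of 75 were above the median gene of the table (171). Together they made up 0.251% of all scaled reads. Divided by transcript length, the median was 227 per kilobase, with 235 for the large subunit and 218 for the small subunit. The length is the median of the annotated protein-coding transcripts, which need not be the transcript the authors counted. The highest 3 by this measure were Mrpl52 (1225 per kilobase), a protein found only in mitochondrial ribosomes, Mrpl33 (1061 per kilobase), a small relative of a bacterial protein, and Mrpl13 (739 per kilobase). By the longest transcript instead, Mrpl33 was at 185 and Mrpl13 at 84.5 per kilobase, and the highest 3 were Mrpl52, Mrpl20 (689) and Mrpl54 (585). The lowest 3 were Mrpl23 (4.5 per kilobase), Mrps33 (23.2 per kilobase) and Mrpl47 (32.4 per kilobase), whose annotated transcript is long at 3364 bases. Mrpl23 was thus nearly silent in this table, with 4.5, 5.5, 0 and 2.5 scaled reads in the starved libraries. As 1 read was worth 0.690 to 1.97 scaled reads, these values rest on a handful of reads, and Mrpl23 passed no test here.

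The members dipped or held their level in the first hours after serum, depending on the scaling, and most were higher than starved later. On the deposited scaling, called the main fit below, 14 of 75 were higher in no window, a count not made for all genes. With TMM scaling 5 of 75 were not called at 15 to 20.5 h. At 0.5 to 3.5 h, 1 member was higher than starved and 20 were lower, against 13.1% of all genes higher and 38.4% lower. The test was limma on log2 of the value plus 1, adjusted over all genes at 0.05, with Cycle in the fit. With TMM scaling 9 members were higher and 1 lower in that window, against 23.3% and 22.7% of all genes. At 4 to 8.5 h, 24 members were higher and 7 lower (22.5% and 40.8% of all genes), and with TMM scaling 38 and 2 (30.4% and 31.8%). At 9 to 14.5 h, 48 were higher and 0 lower, where 24.7% of all genes were higher and 35.3% lower. The count was largest at 15 to 20.5 h, with 60 higher and 0 lower (26.9% and 36.5% of all genes). It was 58 and 0 at 21 to 27 h (26% and 38.3% of all genes) and 52 and 0 at 28 to 38 h (24.2% and 30.7% of all genes). With Cycle 2 alone the counts were smaller, 0 higher and 9 lower at 0.5 to 3.5 h and 11 and 4 at 4 to 8.5 h. They were 23 and 2 at 9 to 14.5 h, and 35 and 37 were higher in the next pair of windows. Shares of all genes called in that fit are not given, so these counts have no background. Without a model, all Cycle 2 libraries were above both starved ones for 13 members at 4 to 8.5 h and 37 at 9 to 14.5 h. Of all genes, 18.7% and 22.6% were so. From 9 to 14.5 h on, counts of 0 lower held also with TMM scaling, which gave 54, 70, 70 and 60 members higher in these 4 windows. With it 30.6%, 32.2%, 32.3% and 28.4% of all genes were higher there, and 29.6%, 31.1%, 32.0% and 27.3% lower.

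The sizes were moderate. The median change of the 75 members on the log2 scale was -0.16, 0.10, 0.38, 0.53, 0.51 and 0.42 over the 6 windows in order, whereas the median of all genes was -0.26, -0.22, -0.13, -0.12, -0.17 and -0.08. TMM scaling moved the median of all genes up by 0.24, 0.18, 0.12, 0.11, 0.14 and 0.08, and the member medians became 0.09, 0.29, 0.51, 0.65, 0.66 and 0.51. In the fit, Cycle is 1 shift shared by all windows. At 28 to 38 h, held by Cycle 1 alone, the change thus also draws on Cycle 2. Against the starved libraries of Cycle 1, the member median of the middle library in that window was 0.58. Relative to the median gene, 49 of 75 members were above it at 0.5 to 3.5 h and 73 at 15 to 20.5 h. At 15 to 20.5 h, 30 members had changed by more than 1.5-fold upwards and 4 by more than 2-fold. Of all 15895 genes, 2688 and 1177 had done so. By an F test over all windows, 73 members changed at some time, which is little more than the 94.7% of all genes that passed the same test. Libraries of a window are neighbours in time from 2 courses, with no statement that separate cultures stand behind them as repeats, so the p-values measure the spread between these libraries.

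**Figure D1:**
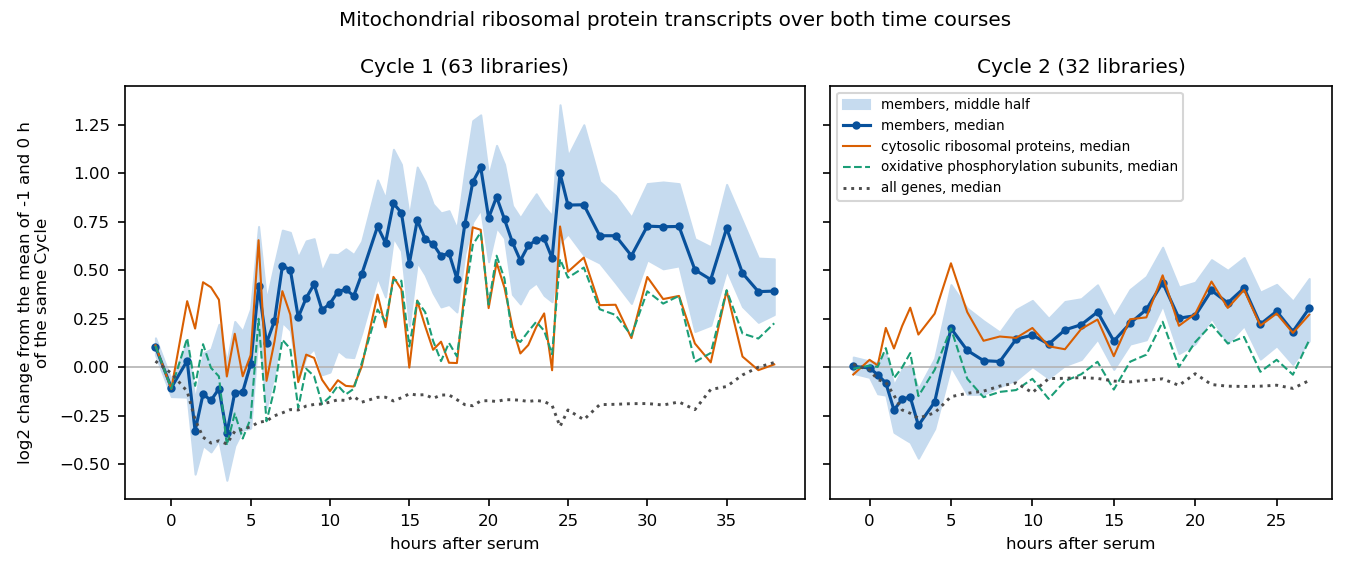
Median log2 change of the 75 members (blue, with the interquartile range shaded), of 82 cytosolic ribosomal protein genes (orange), of 82 oxidative phosphorylation genes (green, dashed) and of all genes (dotted), in every library by hours after serum, each relative to the mean of -1 and 0 h of its own Cycle. The member median was lowest at 3.5 h in Cycle 1 (-0.34) and 3 h in Cycle 2 (-0.30), a fall that TMM scaling turns into a small rise over the 0.5 to 3.5 h window, and highest at 19.5 h (1.03) and 18 h (0.44).

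Read by the hour, the member median fell to -0.34 at 3.5 h in Cycle 1 and to -0.30 at 3 h in Cycle 2. It was last below 0 at 4.5 h and at 4 h. In Cycle 1 it reached 1.03 at 19.5 h and 1.00 at 24.5 h, and in Cycle 2 it reached 0.44 at 18 h and 0.41 at 23 h. Summed over members, the scaled reads were 18654 to 21767 in the 2 starved libraries of Cycle 1 and 29230 to 43020 in its 12 libraries at 15 to 20.5 h. In Cycle 2 the sums were 22548 to 22786 and 24800 to 31135. The ranges thus did not overlap in either Cycle. Single libraries of Cycle 1 stood above their neighbours in time, for the members and for the cytosolic ribosomal protein genes. The member median was 0.02, 0.42 and 0.12 at 5, 5.5 and 6 h, and the cytosolic ribosomal protein median was 0.06, 0.66 and -0.07. At 24, 24.5 and 25 h the members stood at 0.56, 1.00 and 0.84 and the cytosolic genes at -0.02, 0.73 and 0.49. Whether library preparation had a part in this was not tested. Without the 24.5 h library, no count of higher or lower members moved by more than 1.5 times, except that 2 rather than 1 were higher at 0.5 to 3.5 h.

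**Figure D2:**
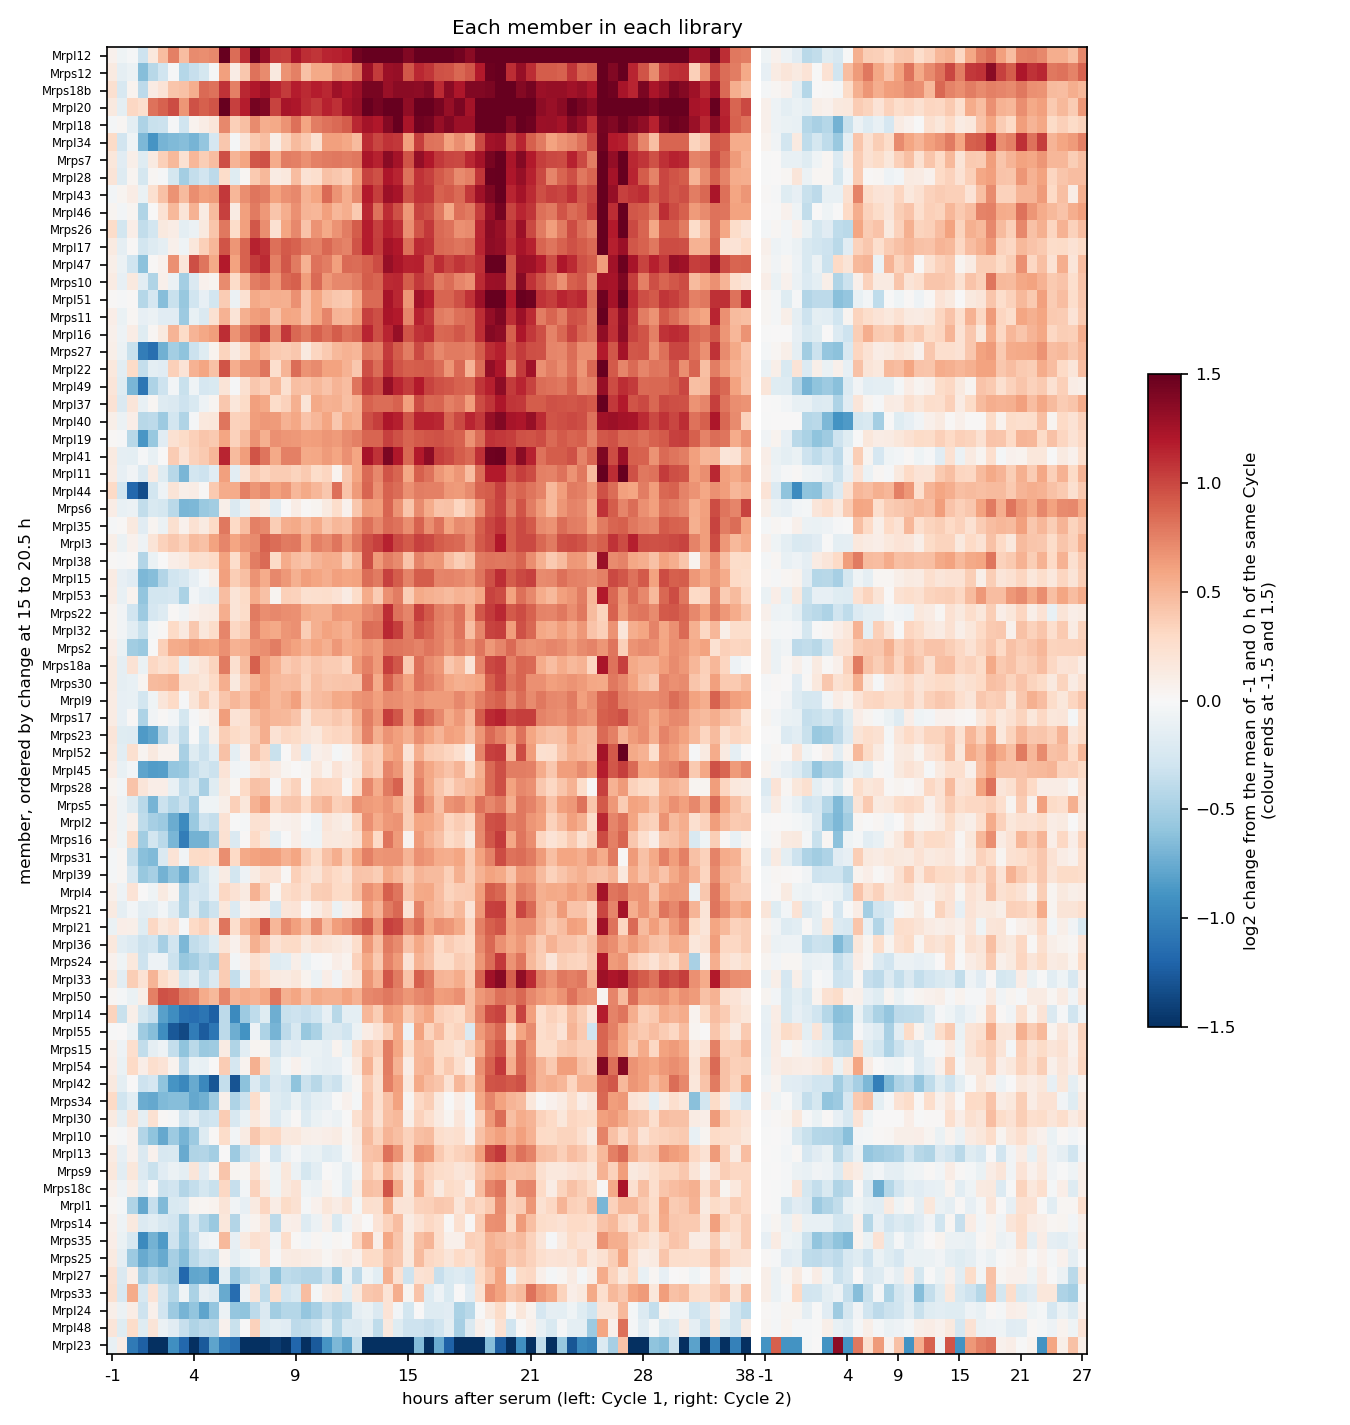
Log2 change of each of the 75 members (rows, ordered by their change at 15 to 20.5 h) in each library (columns, by hours after serum, Cycle 1 left and Cycle 2 right), relative to the mean of -1 and 0 h of the same Cycle. Red marks higher and blue lower values; colour ends at -1.5 and 1.5. Most rows turn from pale blue to red, more deeply in Cycle 1 (with TMM scaling 1 member was called lower at 0.5 to 3.5 h). Mrpl48, Mrpl24 and Mrps33 near the bottom were called higher in no window of the main fit, and Mrpl24 and Mrps33 were lower at 4 to 8.5 h.

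The members were first called higher in different windows of the main fit. A first call depends on the size and spread of a change as well as on its time, and differences in timing were not tested. Sequences of calls over windows were counted for members only, so no share of all genes stands beside them. At 4 to 8.5 h, 24 were higher in the main fit and 38 with TMM scaling. Of the 75, 22 were higher at 4 to 8.5 h and in every later window, among them Mrpl12, Mrpl3, Mrpl20 and Mrps18b. Another 24 were first called higher at 9 to 14.5 h, 12 at 15 to 20.5 h and 1 (Mrps14) later, and 14 were higher in no window. Of the 20 members that were lower at 0.5 to 3.5 h, 15 were higher at 15 to 20.5 h. Of the 7 that were lower at 4 to 8.5 h, 0 were higher at 15 to 20.5 h in the main fit. With TMM scaling 5 of all 75 members were not called higher at 15 to 20.5 h, so some of these 7 were. By subunit, in the 6 windows 1, 17, 31, 38, 37 and 33 of the 47 Mrpl genes were higher, and 0, 7, 17, 22, 21 and 19 of the 28 Mrps genes. Lower members came to 13 and 6 Mrpl genes and 7 and 1 Mrps genes in the first pair of windows, and to 0 later. The median change at 15 to 20.5 h was 0.57 for Mrpl and 0.51 for Mrps genes, and the difference between subunits was not tested.

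**Figure D3:**
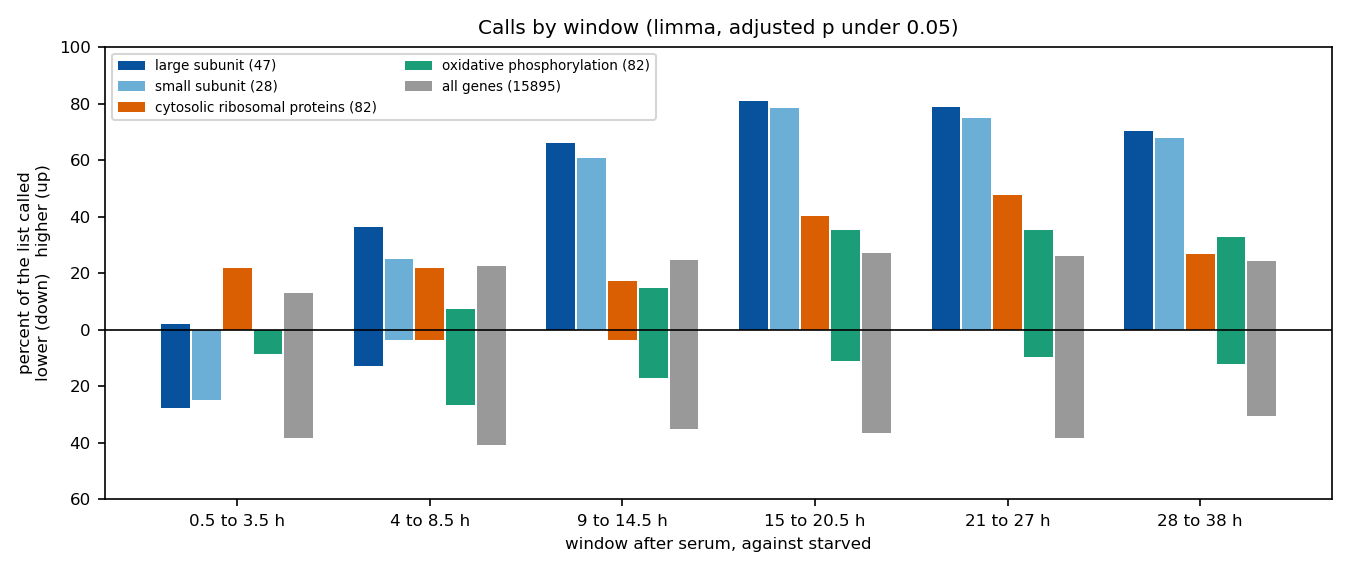
Percent of each gene list called higher (upward bars) or lower (downward bars) than starved in each window, by limma at an adjusted p under 0.05, with the number of genes of each list in the legend. From 9 to 14.5 h on, both subunits of the mitochondrial ribosome have taller upward bars than the cytosolic, oxidative phosphorylation and all-gene bars and no downward bars; the downward bars of members at 0.5 to 3.5 h shrink to 1 gene of 75 with TMM scaling.

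In the fit over both Cycles the largest rise at 15 to 20.5 h was that of Mrpl12 (ENSMUSG00000039640.7, chr11:120345927-120350379, plus strand, mm9), which forms the flexible stalk of the large subunit and is also known to bind the mitochondrial RNA polymerase. Its starved values were 353, 321, 490.3 and 539.8 scaled reads, the first pair in Cycle 1. At 15 to 20.5 h they ran from 858 to 1413 with a median of 1133 in Cycle 1, and from 637 to 921 with a median of 777 in Cycle 2. Every library of that window was above the starved libraries of its Cycle. The fitted log2 change was 1.18 (SE 0.17, 2.27-fold, limma adjusted p = 7.24e-09). In Cycle 2 alone, the changes of Mrps12 (1.03), Mrpl34 (0.83) and Mrps18b (0.73) were larger than that of Mrpl12 (0.59). The rise was already called at 4 to 8.5 h (0.65, SE 0.18, limma adjusted p = 0.000892), and the highest single value was 2111 within 21 to 27 h of Cycle 1.

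Mrps12 (chr7:29524660-29526839, minus strand, mm9), the protein at the decoding centre of the small subunit, rose in the pooled fit with similar estimates in the Cycles. Its starved values were 230.0, 189.6, 178 and 211. It held 380 to 607 scaled reads at 15 to 20.5 h in Cycle 1 (median 446) and 332 to 499 in Cycle 2 (median 400.0). The groups did not overlap in either Cycle. The log2 change was 1.10 (SE 0.15, limma adjusted p = 2.79e-09), with 1.12 in Cycle 1 and 1.03 in Cycle 2.

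Mrpl20, a large subunit protein with a bacterial relative that acts early in assembly, was at 433, 352, 674 and 604 in the starved libraries. It reached 927 to 1567 (median 1172) at 15 to 20.5 h of Cycle 1 and 762 to 1030 (median 909) in Cycle 2. All these libraries were above the starved ones of their Cycle, although the starved values of Cycle 2 lay well above those of Cycle 1. The log2 change was 1.06 (SE 0.13, limma adjusted p = 7.43e-11). Mrpl3, which lies near the peptidyl transferase centre, changed less but with less scatter, from 467, 413, 611 and 564 to 724 to 1013 in Cycle 1 and 650 to 796 in Cycle 2. Its log2 change was 0.62 (SE 0.09, limma adjusted p = 2.76e-09).

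The 3 paralogs that share the name Mrps18 had different values. Mrps18b (chr17:36047324-36053334, minus strand, mm9) went from 125, 89.4, 138 and 143 to 231 to 325 in Cycle 1 and 229.8 to 241 in Cycle 2 at 15 to 20.5 h. Its change was 1.08 (SE 0.12, limma adjusted p = 1.31e-12) and was called from 4 to 8.5 h on. Mrps18a, which despite its name sits in the large subunit, rose by 0.55 (SE 0.12, limma adjusted p = 8.53e-05). Mrps18c had a change of 0.21 (SE 0.14, limma adjusted p = 0.174), and its Cycle 2 values of 184 to 234 overlapped its starved values of 214 and 211. The differences among the 3 paralogs were not tested. Exons of Mrps18b share 638 bases with Gm16279 on the opposite strand, and the counting ignored strand.

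**Figure D4:**
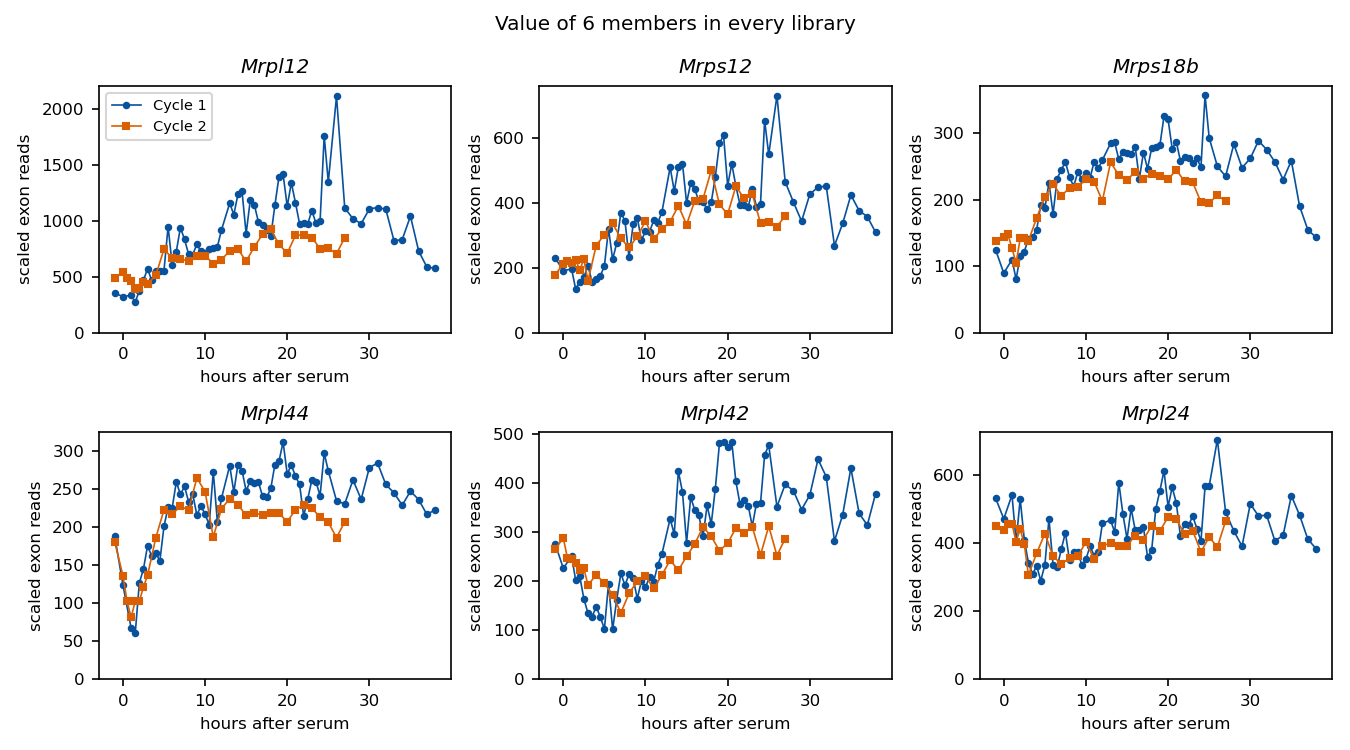
Scaled read counts of 6 members in every library of Cycle 1 (blue circles) and Cycle 2 (orange squares) by hours after serum, each panel with its own axis from 0. Mrpl12, Mrps12 and Mrps18b climb to a plateau, Mrpl44 drops first to 60.1 in Cycle 1 and 80.9 in Cycle 2 and then climbs, Mrpl42 falls and returns, and Mrpl24 ends near its starved level.

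Several members fell before they rose, although with TMM scaling 1 member in all was still called lower at 0.5 to 3.5 h. Mrpl44, a protein with a ribonuclease III fold at the edge of the large subunit, had 188, 124, 180.3 and 136 scaled reads in the starved libraries. At 0.5 to 3.5 h it ranged from 60.1 to 175 in Cycle 1 (median 135) and from 80.9 to 136 in Cycle 2 (median 102). It was called lower there (log2 change -0.49, SE 0.13, limma adjusted p = 0.00134), while with TMM scaling the change was -0.25. At 4 to 8.5 h it was called higher (0.46, SE 0.13, limma adjusted p = 0.00166), and it stayed higher in all later windows. Mrpl19 and Mrps31 had the same sequence of calls. Mrps34, found only in mitochondria and needed for a stable small subunit, was lower early (-0.46, SE 0.16, limma adjusted p = 0.0116) and was called in no later window. Its exons share 763 bases with Nme3 and 1309 with Mapk8ip3, so its value may hold reads of those genes. The only member higher at 0.5 to 3.5 h in the main fit was Mrpl50, with a log2 change of 0.28. In Cycle 1 its values there were 386 to 798 (median 701), against 421 and 403 when starved. In Cycle 2 they were 445 to 631 (median 506), against 540 and 506, so the Cycles differed.

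A second set, 7 members, was lower at 4 to 8.5 h and was not called higher in any later window of the main fit. With TMM scaling some of them were, as 5 of all 75 members were not called higher at 15 to 20.5 h. Mrpl42, another mitochondria-specific protein, had 277, 226, 266 and 288 scaled reads in the starved libraries. At 4 to 8.5 h it ranged from 101 to 216 in Cycle 1 (median 177) and from 135 to 214 in Cycle 2 (median 175). All 15 libraries were below the starved values of their Cycle, and the log2 change was -0.69 (SE 0.17, limma adjusted p = 0.000421). Mrpl14, a protein of the face between the subunits that was already lower at 0.5 to 3.5 h, changed by -0.64 (SE 0.19, limma adjusted p = 0.00213) and Mrpl55 by -0.53 (SE 0.19, limma adjusted p = 0.0111). Mrpl24, beside the exit tunnel, changed by -0.40 (SE 0.11, limma adjusted p = 0.00192), Mrpl13 by -0.39 and Mrps33 by -0.37. With TMM scaling 2 of the 7 falls were called, and all 6 named here kept their sign (from -0.50 for Mrpl42 to -0.19 for Mrps33). At 15 to 20.5 h, Mrpl42 stood at 0.35 (SE 0.17, limma adjusted p = 0.07), with 278 to 485 scaled reads in Cycle 1, above both its starved libraries, and 251 to 311 in Cycle 2, overlapping them. Mrpl24 was at -0.06 (SE 0.11, limma adjusted p = 0.634). Exons of Mrpl24 share 594 bases with Rrnad1, those of Mrpl13 330 with Mtbp and those of Mrpl14 106 with Tmem63b, all on the opposite strand. In all, 26 members share exon bases with another annotated gene.

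Mrps22 and Mrps16 are known from inherited defects of mitochondrial translation. Mrps22 went from 213, 197, 283 and 255 scaled reads to 302 to 449 in Cycle 1 and 287 to 347 in Cycle 2 at 15 to 20.5 h. It was called from 9 to 14.5 h on, with 0.57 at 15 to 20.5 h (SE 0.11, limma adjusted p = 8.45e-06). Mrps16 was called at 15 to 20.5 h (0.45, SE 0.16, limma adjusted p = 0.0101) and at 21 to 27 h, and not at 28 to 38 h (0.15, limma adjusted p = 0.474). Mrpl32, which a mitochondrial protease must trim before it joins the ribosome, changed by 0.56 (SE 0.12, limma adjusted p = 1.77e-05) and Mrpl35 by 0.64 (SE 0.09, limma adjusted p = 1.06e-09) in the 15 to 20.5 h window. Mrpl52, the highest per length, rose late, by 0.52 (SE 0.15, limma adjusted p = 0.00197). Mrpl47, a relative of a bacterial protein at the exit tunnel, rose by 0.76 (SE 0.14, limma adjusted p = 2.19e-06), and its exons share 447 bases with Actl6a and 158 with Ndufb5.

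Promoters of the members are shown because all but 14 of the 75 members were higher than starved in some window of the main fit. RefSeq promoters (assembly GRCm38.p6, from 250 bases before to 50 after the start site) were matched by symbol for 66 of 75 members, 3 of them with more than 1 promoter, giving 72. The letter strings named here were searched on both strands, with no allowance for mismatches. The ETS core CCGGAAG was in 33.3% of member promoters and 8.86% of all 32851 promoters. The NRF1 string GCATGCGC, part of a site bound by nuclear respiratory factor, a known regulator of mitochondrial genes, was in 11.1% and 2.71%. The YY1 string AAGATGG was in 18.1% and 6.34%, and the Sp string GGGCGG in 51.4% and 35.7%. The shares were closer for the E-box CACGTG (9.72% and 7.15%) and CCAAT (40.3% and 37.4%), and lower in members for TATAAA (6.94% and 13.6%). GCATGCGC overlaps its own reverse complement, so neighbouring matches can be 1 site. Members with the ETS string had a median change of 0.57 at 15 to 20.5 h (n = 24) and those without it 0.53 (n = 42). With the NRF1 string the median was 0.55 (n = 8) and without it 0.55 (n = 58). With the YY1 string it was 0.64 (n = 13) and without it 0.53 (n = 53), and with the E-box 0.46 (n = 5) and without it 0.55 (n = 61). No test of these differences was made. The last 120 bases before the start site follow for Mrpl32, with the most NRF1 matches, for Mrpl3, Mrps22 and Mrps18a, with an ETS match near the start, and for Mrpl12, the largest rise in the fit over both Cycles, in which none of the ETS, NRF1, YY1 or E-box strings lies in this stretch. They read 5′ to 3′ on the strand of the gene, and capitals mark matches to the NRF1, ETS, YY1 or E-box strings.
Mrpl32 (chr13:14613038-14613157, minus strand): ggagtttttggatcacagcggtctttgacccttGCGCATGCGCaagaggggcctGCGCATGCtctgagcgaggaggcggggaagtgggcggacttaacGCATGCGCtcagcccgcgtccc
Mrpl3 (chr9:105053148-105053267, plus strand): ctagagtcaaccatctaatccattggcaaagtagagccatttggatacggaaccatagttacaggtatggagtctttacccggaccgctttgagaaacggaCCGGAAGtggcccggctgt
Mrps22 (chr9:98601680-98601799, minus strand): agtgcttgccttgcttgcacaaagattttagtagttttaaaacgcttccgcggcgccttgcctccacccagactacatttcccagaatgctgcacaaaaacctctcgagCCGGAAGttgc
Mrps18a (chr17:46110884-46111003, plus strand): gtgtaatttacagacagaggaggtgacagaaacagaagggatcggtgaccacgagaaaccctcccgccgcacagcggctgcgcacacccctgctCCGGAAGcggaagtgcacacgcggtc
Mrpl12 (chr11:120484517-120484636, plus strand): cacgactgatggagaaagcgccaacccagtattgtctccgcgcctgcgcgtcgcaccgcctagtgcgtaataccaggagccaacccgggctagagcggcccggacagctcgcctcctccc

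From 4 to 8.5 h on, the members changed by less in Cycle 2 than in Cycle 1 at the median. The median change of the members was -0.18, 0.20, 0.54, 0.69 and 0.71 in the first 5 windows of Cycle 1 and -0.13, 0.04, 0.18, 0.26 and 0.29 in Cycle 2. The mean change had the same direction in both Cycles for 54, 59, 56, 66 and 67 of the 75 members. The change over the windows differed between the Cycles for 41 members (limma F test of the Cycle by window term, adjusted p under 0.05), where 32.6% of all genes passed. Tested window by window, 0, 5, 8, 22 and 17 members differed, each with the larger change in Cycle 1, and 1.61%, 9.63%, 13.7%, 17.9% and 15.3% of all genes differed. The starting levels were part of this measurement. Starved values were higher in Cycle 2 for 57 of 75 members (median log2 difference 0.13), and at 21 to 27 h they were lower in Cycle 2 for 75 of 75 (median -0.30). Of all genes, 43.5% were higher in Cycle 2 when starved (median -0.08) and 46.3% at 21 to 27 h (median -0.03). In Cycle 1 the starved libraries also differed from each other, the -1 h library being above the 0 h library for 67 of 75 members. Relative to the mean of the pair, the -1 h library had a member median of 0.11 and an all-gene median of 0.03. Each Cycle was run once, so run and Cycle cannot be told apart.

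**Figure D5:**
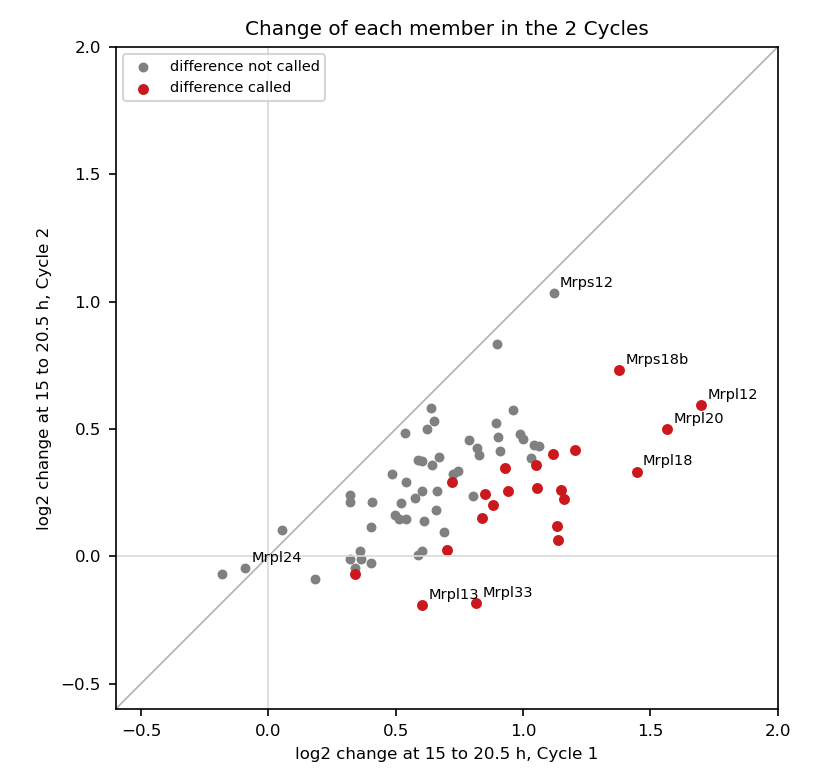
Log2 change at 15 to 20.5 h of each member in Cycle 1 (horizontal) and Cycle 2 (vertical), without Mrpl23, whose values rest on few reads; the grey diagonal marks equal change. Red points are members whose change differed between the Cycles (limma, adjusted p under 0.05), all below the diagonal; Mrps12 lies near it and Mrpl33 and Mrpl13 lie below 0 in Cycle 2.

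Single members showed this gap to different degrees. Mrpl12 changed by 1.70 in Cycle 1 and 0.59 in Cycle 2 at 15 to 20.5 h (difference 1.11, SE 0.32, limma adjusted p = 0.00821). Mrpl20 changed by 1.57 and 0.50 (difference 1.07, SE 0.24, limma adjusted p = 0.000686). For Mrps12 the difference was 0.09 (SE 0.30, limma adjusted p = 0.874), an estimate too wide to tell equal from unequal change. Mrpl33 went from 418 and 334 to 492 to 961 in Cycle 1 (log2 change 0.82), and from 600.0 and 677 to 491 to 643 in Cycle 2 (log2 change -0.18). Its call as higher at 15 to 20.5 h (0.38, SE 0.16, limma adjusted p = 0.0353) therefore rested on Cycle 1. Mrpl13 changed by 0.60 in Cycle 1 and -0.19 in Cycle 2 (difference 0.80, SE 0.25, limma adjusted p = 0.0171). Counted without a model, all libraries at 15 to 20.5 h were above both starved libraries for 59 members in Cycle 1, against 26.6% of all genes, and for 42 in Cycle 2, against 22.6%.

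Cytosolic ribosomal protein genes, taken by symbol and with relatives such as Rpl7l1 and Rps27l among them, were counted for comparison. Of 82, 18 were higher at 0.5 to 3.5 h and 0 lower, and 33 were higher at 15 to 20.5 h, against 13.1% and 26.9% of all genes higher. With TMM scaling 61 and 46 were higher, against 23.3% and 32.2% of all genes. Their median change was 0.22, 0.19, 0.15, 0.26, 0.32 and 0.23 over the 6 windows, and with TMM scaling 0.47 in the first. The members were below the cytosolic median in all 6 libraries of 0.5 to 3.5 h in each Cycle, by a median of 0.49 in Cycle 1 and 0.35 in Cycle 2 on the log2 scale. Later the Cycles differed. At 15 to 20.5 h the members were above the cytosolic genes in 12 of 12 libraries of Cycle 1 (by a median of 0.44), and in 3 of 6 libraries of Cycle 2 (by a median of 0.01). Genes of oxidative phosphorylation, also taken by symbol, changed less. Of 82, 29 were higher and 9 lower at 15 to 20.5 h, with a median change of 0.19. With TMM scaling 47 were higher and 7 lower, against 32.2% and 31.1% of all genes. The members were above the oxidative phosphorylation genes in 12 of 12 and 6 of 6 libraries of that window, by 0.41 and 0.22. No test of a difference between these lists was made.

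The members are short transcripts, with a median length of 1018 bases against 2357 for all genes with a length, and shorter transcripts had higher median changes as a class. At 15 to 20.5 h the median change of genes that are no member was 0.04 for transcripts under 1000 bases, -0.02 for 1000 to 2000 bases and -0.21 for longer ones. Within these classes the members stood at 0.45 (n = 37), 0.60 (n = 25) and 0.58 (n = 13). Called higher were 27, 22 and 11 of them, where 32.6%, 31.5% and 24.1% of the other genes of each class were called higher. The medians of the longer members were thus not below that of the short ones, and the differences were not tested.

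Other genes of mitochondrial translation gave mixed counts, to be read against 38.4% of all genes lower at 0.5 to 3.5 h and 26.9% higher at 15 to 20.5 h. With TMM scaling these shares of all genes were 22.7% and 32.2%. Of 6 mitochondrial ribosome proteins that carry other names, 5 were higher at 15 to 20.5 h, among them Ptcd3 (0.54) and Chchd1 (0.54). Dap3, a GTP-binding protein of the small subunit, was at 0.09 and had been lower early (-0.37). With TMM scaling 0 of the 6 were called lower at 0.5 to 3.5 h, and the lowest change among them was -0.12. Of 20 assembly and ribosomal RNA modification genes, 12 were lower at 0.5 to 3.5 h, and 12 were higher and 1 lower at 15 to 20.5 h. With TMM scaling 7 were lower early and 14 higher at 15 to 20.5 h. Noa1, a GTPase of small subunit assembly, was at 0.86, and the fall was that of Mterfd2, which recruits an RNA methyltransferase to the large subunit (-1.03). Of 14 translation factors, 10 were lower early (6 with TMM scaling) and 5 higher at 15 to 20.5 h (7 with TMM scaling), including the elongation factors Tufm (0.80), Gfm1 (0.69) and Tsfm (0.56), whereas Mtif2 and Guf1 were lower (-0.60 and -0.42). Of 17 mitochondrial tRNA synthetases, 13 were lower at 0.5 to 3.5 h (12 with TMM scaling), and Mars2 (0.71) and Yars2 (0.64) were higher. At 15 to 20.5 h 6 were higher (7 with TMM scaling) and 1 was lower, a share of higher genes near that of all genes. Of 13 regulators of mitochondrial genes, 4 were higher and 5 lower at 0.5 to 3.5 h (4 and 2 with TMM scaling). At 15 to 20.5 h, 7 were higher and 3 lower (7 and 2 with TMM scaling). Myc was higher at 0.5 to 3.5 h (1.98) and at 15 to 20.5 h (0.84). Tfam, which packages mitochondrial DNA, was highest early (1.05, and 0.26 at 15 to 20.5 h). Gabpb1 and Pprc1 were higher in all 6 windows, and Ppargc1a, at 25.7 scaled reads when starved, was lower in all 6 (-2.38 at 15 to 20.5 h). Gabpa, the partner of Gabpb1 that binds ETS sites, was at -0.05 at 15 to 20.5 h and was not called there, and Nrf1 was higher by 0.27.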

How the data were processed

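RNA was sequenced from 96 fibroblast samples, and 95 columns of the deposited table were used; 1 column matched no sample title and was left out. Per the labels and the study's methods, the authors made stranded polyA libraries, processed reads with CASAVA, aligned them to mm9 with STAR, and counted exon reads regardless of strand with HOMER; versions are not given in the sources used here. The deposited values are signal, exon reads scaled by the authors to a common total; 95.9% to 99.9% of low values per library were whole multiples of 1 read within a tolerance of 0.05. The table averages transcripts for 1096 of the 15895 genes, 1 of them a member. Counts were not restored for any gene, and the planned count model was not run.

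Log2 of the value plus 1 was fitted with limma 3.58.1 (R 4.3.3) over all 15895 genes, with window means and Cycle as covariate, at a Benjamini-Hochberg adjusted p of 0.05 within a window. Cycle served as the replicate block, as 1 shift shared by all windows. Libraries were thus not set against the -1 and 0 h libraries of their own course alone. The study's methods divide by the mean of such libraries. Changes given for a single Cycle are differences from the starved mean of that Cycle. TMM factors came from a written-out, unweighted version. The fit was tested on simulated data. Alternatives were a pseudocount of 10, a mean of at least 50, TMM, the limma trend, no block, and leaving out a Cycle, the 24.5 h library or each starved library. Gene positions and transcript lengths (median over protein-coding transcripts) are from GENCODE for mm9. Members named were the 4 largest called rises and falls with the same direction in both Cycles at 4 to 8.5, 9 to 14.5 and 21 to 27 h, the 3 highest and lowest per length, and members with known roles or paralogs; Mrpl17, Mrpl19, Mrpl34, Mrpl48, Mrpl50, Mrpl54, Mrps14 and Mrps31 were named after their values were seen. The members, lists and length classes were chosen with earlier results of these data known. Python 3.11.15 with numpy 2.4.6, pandas 2.3.3 and matplotlib 3.10.9 was used.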

Additional observations from a re-analysis of the deposited data

Results flagged for a closer look

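For 12 of the 23 members chosen for naming, the change over the windows differed between the Cycles (limma F test of the Cycle by window term, adjusted p under 0.05). The size is given as the log2 change at 15 to 20.5 h in Cycle 1 minus that in Cycle 2. It was 1.11 for Mrpl12, 1.07 for Mrpl20, 1.00 for Mrpl33, 0.89 for Mrpl47 and 0.80 for Mrpl13. It was 0.68 for Mrpl3, 0.68 for Mrps22 and 0.65 for Mrps18b, 0.58 for Mrpl14, 0.58 for Mrpl42, 0.57 for Mrpl32 and 0.19 for Mrpl55. Taken in that window alone, the difference was not called for Mrpl14, Mrpl32, Mrpl42 and Mrpl55. No starved library of a named member lay apart from the other 3 by Dixon's test.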

How the results depend on the processing

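The count model planned on whole reads was not run. With TMM scaling, 9 members were higher and 1 lower at 0.5 to 3.5 h, and 38 higher and 2 lower at 4 to 8.5 h. The shares of all genes with this scaling were 23.3% higher and 22.7% lower at 0.5 to 3.5 h, and 30.4% and 31.8% at 4 to 8.5 h. At 0.5 to 3.5 h the single higher member became 2 with the limma trend, a mean of at least 50, a pseudocount of 10, without Cycle 2 or without the 24.5 h library, and 0 without the replicate block (Cycle) or without Cycle 1; the replicate block moved no other count by over 1.5 times. Without Cycle 1, 9 were lower at 0.5 to 3.5 h, 11 higher and 4 lower at 4 to 8.5 h, 23 higher and 2 lower at 9 to 14.5 h, 35 higher at 15 to 20.5 h and 37 at 21 to 27 h; Mrpl33 turned to -0.1831 and -0.0555 in the last pair of windows. Lower members, 0 in the main fit, were 1 at 15 to 20.5 h with a pseudocount of 10, and 1 at 9 to 14.5 h and 1 at 15 to 20.5 h without Cycle 2. The causes were not tested. Shares of all genes are not given here for the fits that leave out a Cycle.

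Leaving out each starved library gave 0 to 3 higher and 13 to 25 lower members at 0.5 to 3.5 h (13 without the 0 h library of Cycle 2), 16 to 26 and 5 to 7 at 4 to 8.5 h, 36 to 47 and 0 to 1 at 9 to 14.5 h, 51 to 60 and 0 to 1 at 15 to 20.5 h, 50 to 58 and 0 to 1 at 21 to 27 h, and 36 to 56 and 0 to 1 at 28 to 38 h, with 72 to 73 by the F test and 33 to 39 for the Cycle difference. Every change rests on 4 starved libraries and 2 runs, and values of Mrpl23 and Mrps33 on few reads.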
